A study of Homo sapiens with 6 samples.

Results

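The proteasome genes of RKO cells were followed in control cells and in cells that overexpressed the long noncoding RNA LOC101927668. All protein-coding genes whose symbol begins with PSMA, PSMB, PSMC, PSMD, PSME, PSMF or PSMG and a digit were taken, which gave 49 of the 58735 genes in the table. RKO is an established human colorectal carcinoma cell line. Both groups were RKO cells grown in Dulbecco's modified Eagle's medium with serum, and RNA was sequenced from 3 libraries of each group. LOC_OE cells were stable lines made with a lentivirus that carries the full-length LOC101927668 transcript under puromycin selection, and Vector cells were their negative controls. Per the labels, the 3 libraries of a group are biological replicates, but how the replicate cultures were kept apart and whether a line is a clone or a pool are not given in the sources used here. P-values therefore measure the spread between these libraries. Levels are given as deposited FPKM, which scales the fragments counted on a gene by its exon length and by library size. RNA was measured in bulk, so more cells with a transcript and more of it per cell cannot be told apart.

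The proteasome is the particle that degrades proteins tagged with ubiquitin. Its 20S core is a barrel of outer alpha rings (PSMA1 to PSMA7) and inner beta rings (PSMB1 to PSMB7), and the 19S cap on its ends holds a ring of ATPases (PSMC1 to PSMC6), which unfold the substrate, and non-ATPase subunits (most PSMD genes), which bind ubiquitin and remove it. Cells exposed to interferon replace the catalytic beta subunits by PSMB8, PSMB9 and PSMB10, which form the immunoproteasome, and alternative activators such as PA28 (PSME1 to PSME3) and PA200 (PSME4) can open the core in place of the 19S cap.

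The symbols were checked against these roles. PSMC3IP meets the rule by its symbol only: it encodes the meiotic recombination cofactor HOP2, not a subunit, and is described apart. PSMA8, the alpha subunit of the testis, had 0 reads in every library, and PSMB11, the beta subunit of the thymus, had 0 FPKM in 5 libraries and 0.0510 FPKM in Vector replicate 2. The other 47 genes reached an FPKM of 0.5 in at least 3 libraries and were tested among 16061 genes.

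LOC101927668 was at 0.0208, 0.0210 and 0 FPKM in the Vector libraries and at 5.63, 6.57 and 7.33 FPKM in LOC_OE. The LOC_OE mean of 6.51 FPKM was 103 times the level that 3 reads give in a Vector library (0.0630 FPKM). The libraries held 15008842 to 18410231 reads on genes. Of the colon epithelium markers, EPCAM, KRT8, KRT18 and CDX2 were detected, whereas CDH1 was listed at 0 in every library and KRT19, KRT20 and VIL1 were at 0.262 FPKM or less. The 5 blood cell markers summed to 0.113 FPKM or less and the 6 fibroblast and endothelial markers to 0.249 FPKM or less in each library. LOC_OE replicate 1 stood apart from the other LOC_OE libraries. Its Pearson correlation across genes was 0.967 with replicate 2 and 0.962 with replicate 3, against 0.982 between replicates 2 and 3. The deposited values of this library had been divided by a library size of 16010292, although it held 18410231 reads on genes, the largest number in the series. LOC_OE replicates 2 and 3 were likewise divided by less than their reads on genes (16036779 against 16661108, and 14692797 against 15008842). Each Vector library was divided by more (18569332 against 17048823 in replicate 2). Compared with division by the reads on genes, the deposited scaling raised LOC_OE over Vector. The median log2 fold change of all genes tested was 0.02 in deposited FPKM and -0.13 after division by the reads on genes. Which divisor is right was not tested. Fits without LOC_OE replicate 1 kept the deposited scaling, and no rescaled fit left out a library. Because replicate 1 stood apart, the main results are given with and without it.

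In Vector cells the tested genes ranged over more than 2 orders of magnitude. PSMD2, a large scaffold subunit of the 19S cap, had the highest mean level, 172 ± 6.95 FPKM (SD, n = 3), followed by PSMB7, the trypsin-like catalytic subunit, at 145 ± 9.24 FPKM, PSMB4 at 103 ± 10.5 FPKM and PSMA7 at 99.3 ± 4.22 FPKM. PSMB4, PSMA7 and PSMB3 (98.1 ± 4.94 FPKM) did not differ beyond their spread. Although the core and the cap hold their subunits in fixed proportion, FPKM in the alpha ring ran from 0.710 to 99.3, in the beta ring from 25.5 to 145, in the ATPase ring from 8.63 to 55.0 and among the non-ATPase subunits from 12.8 to 172. The lowest levels of core subunits, those of PSMA2 (0.710 ± 0.126 FPKM) and PSMA6 (0.711 ± 0.0720 FPKM), coincided with shared annotation. In GENCODE version 29, 97.1% of the coding bases of PSMA2 and 70.4% of those of PSMA6 also lie in exons of another gene on the same strand. PSMA1 (88.6%), PSMD9 (58.7%) and PSMB10 (58.3%) shared most of their coding bases in the same way. These 5 genes had a median Vector level of 1.23 FPKM, against 23.96 FPKM for the other 42. How reads on shared exons were counted is not given in the sources used here, and its part in the low levels was not tested. The level of a gene also depends on the exon length by which its reads were divided, which was up to 11.3 times the coding length (PSMD9).

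**Figure D1:**
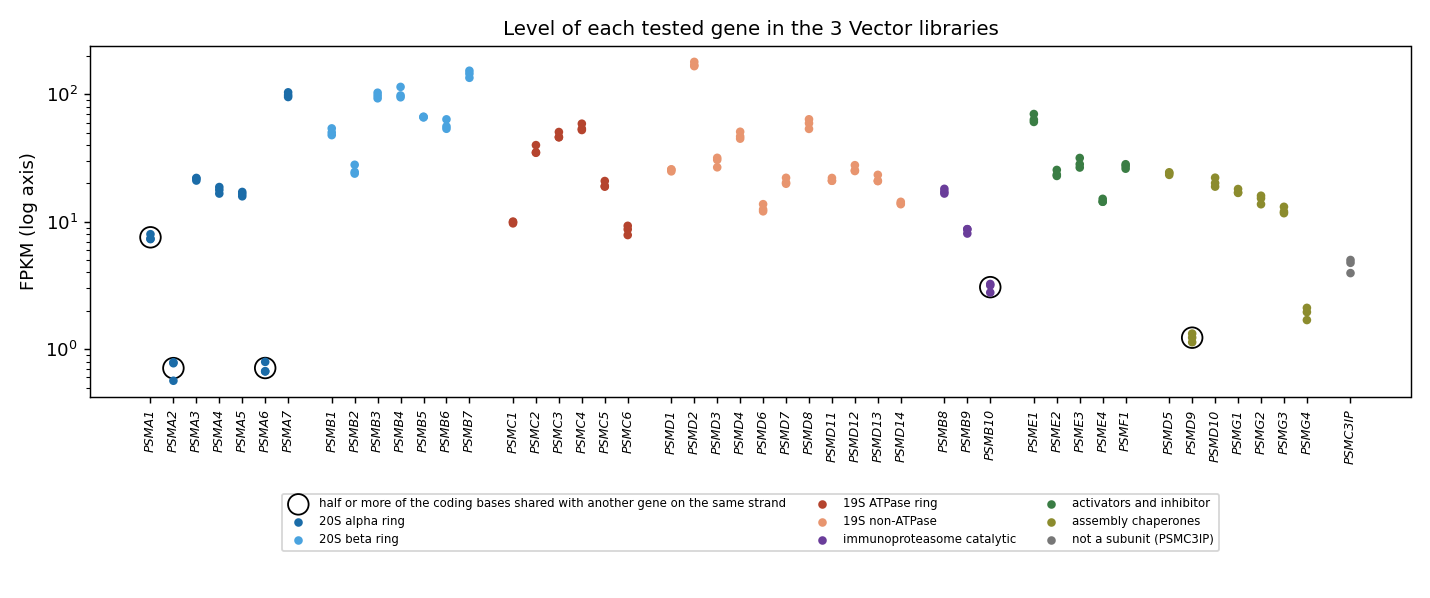
FPKM of the 47 tested genes in the 3 Vector libraries, on a log axis, 1 point per library, coloured by structural class. Circles mark the 5 genes that share at least 50% of their coding bases with another gene on the same strand; these include the lowest alpha subunits, PSMA2 and PSMA6, at about 0.71 FPKM, while PSMD2 was highest at 172 FPKM.

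Overexpression of LOC101927668 was compared with Vector to learn which proteasome genes differed between the lines. In LOC_OE, 4 of the 47 tested genes rose and 1 fell with limma at a Benjamini-Hochberg adjusted p-value under 0.05. The genes that rose were PSME3, PSMG1, PSMD12 and PSMC3IP, and the gene that fell was PSMB9. The share of members that rose was 8.51%, against 10.7% of all tested genes, and the share that fell was 2.13%, against 9.74%. The same 5 genes also changed by at least 1.5-fold, where the background was 4.63% of all tested genes higher and 5.58% lower. The median log2 fold change of the 47 genes was 0.31, and 41 of them were above 0. Over all 16061 genes tested the median was 0.02, and 8357 were above 0. Without LOC_OE replicate 1 the median of the 47 genes was 0.07, and 32 were above 0. All genes tested then had a median of 0.01, and 8243 were above 0. Rescaling each library to the same sum of FPKM moved the median of all tested genes by -0.20 and that of the proteasome genes to 0.05, which is 0.23 above all genes, and 42 of the 47 genes were then above the median of all genes. With quantile normalization the members lay 0.09 above all genes, with 37 of 47 above. Both of these settings kept LOC_OE replicate 1.

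Most proteasome genes were higher in LOC_OE replicate 1 than in any other library. The median difference from the Vector mean, in log2(FPKM + 1), was 0.83 in LOC_OE replicate 1, 0.10 in replicate 2 and 0.06 in replicate 3. The 31 constitutive subunits of the core and the cap summed to 1410.7, 1319.9 and 1282.9 FPKM in the Vector libraries and to 2565.9, 1456.2 and 1411.2 FPKM in LOC_OE. In deposited FPKM every LOC_OE sum was above every Vector sum. However, LOC_OE replicate 3 lay next to Vector replicate 1, and LOC_OE replicate 1 was far above the other libraries. Whether this order of the sums holds in rescaled libraries was not tested. Rescaling turned the median differences of replicates 2 and 3 negative. They became -0.06 and -0.07 after division by the reads on genes, and -0.09 and -0.10 with the same sum of FPKM. Replicate 1 stayed positive, at 0.54 and 0.43. The same rescalings also moved all genes tested. Their median log2 fold change with 6 libraries was -0.13 after division by the reads on genes and -0.18 with the same sum of FPKM. It was 0.02 in deposited FPKM. Medians of all genes in each rescaled library are not given here. On the log2(FPKM + 1) scale, replicate 1 was at least 1.5-fold above each of replicates 2 and 3 for 25 of the 47 genes (53.2%), against 7.88% of all tested genes. With each library divided by its reads on genes, 17 of the 47 genes (36.2%) remained past this limit, against 4.45% of all genes, and with the same sum of FPKM it was 14 (29.8%), against 3.31%. The FPKM of a member in replicate 1 was 1.01 to 2.42 times the mean of replicates 2 and 3, with a median of 1.67, while the median of all tested genes was 1.01. PSMB3 (2.42) and PSMB6 (2.38) had the largest ratios, and PSME4 (1.01), PSMG4 (1.08), PSMG2 (1.09), PSMB8 (1.10) and PSMB9 (1.11) the smallest. Of the epithelial markers, KRT18 was also at 67.5 FPKM in replicate 1, against 25.3 and 25.1 FPKM in the other LOC_OE libraries. EPCAM (7.49 against 5.69 and 5.54 FPKM) and CDX2 (5.56 against 4.64 and 4.06 FPKM) differed less. KRT8 went the other way, at 9.02 FPKM in replicate 1 against 13.3 and 13.7 FPKM. What sets replicate 1 apart was not tested.

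**Figure D2:**
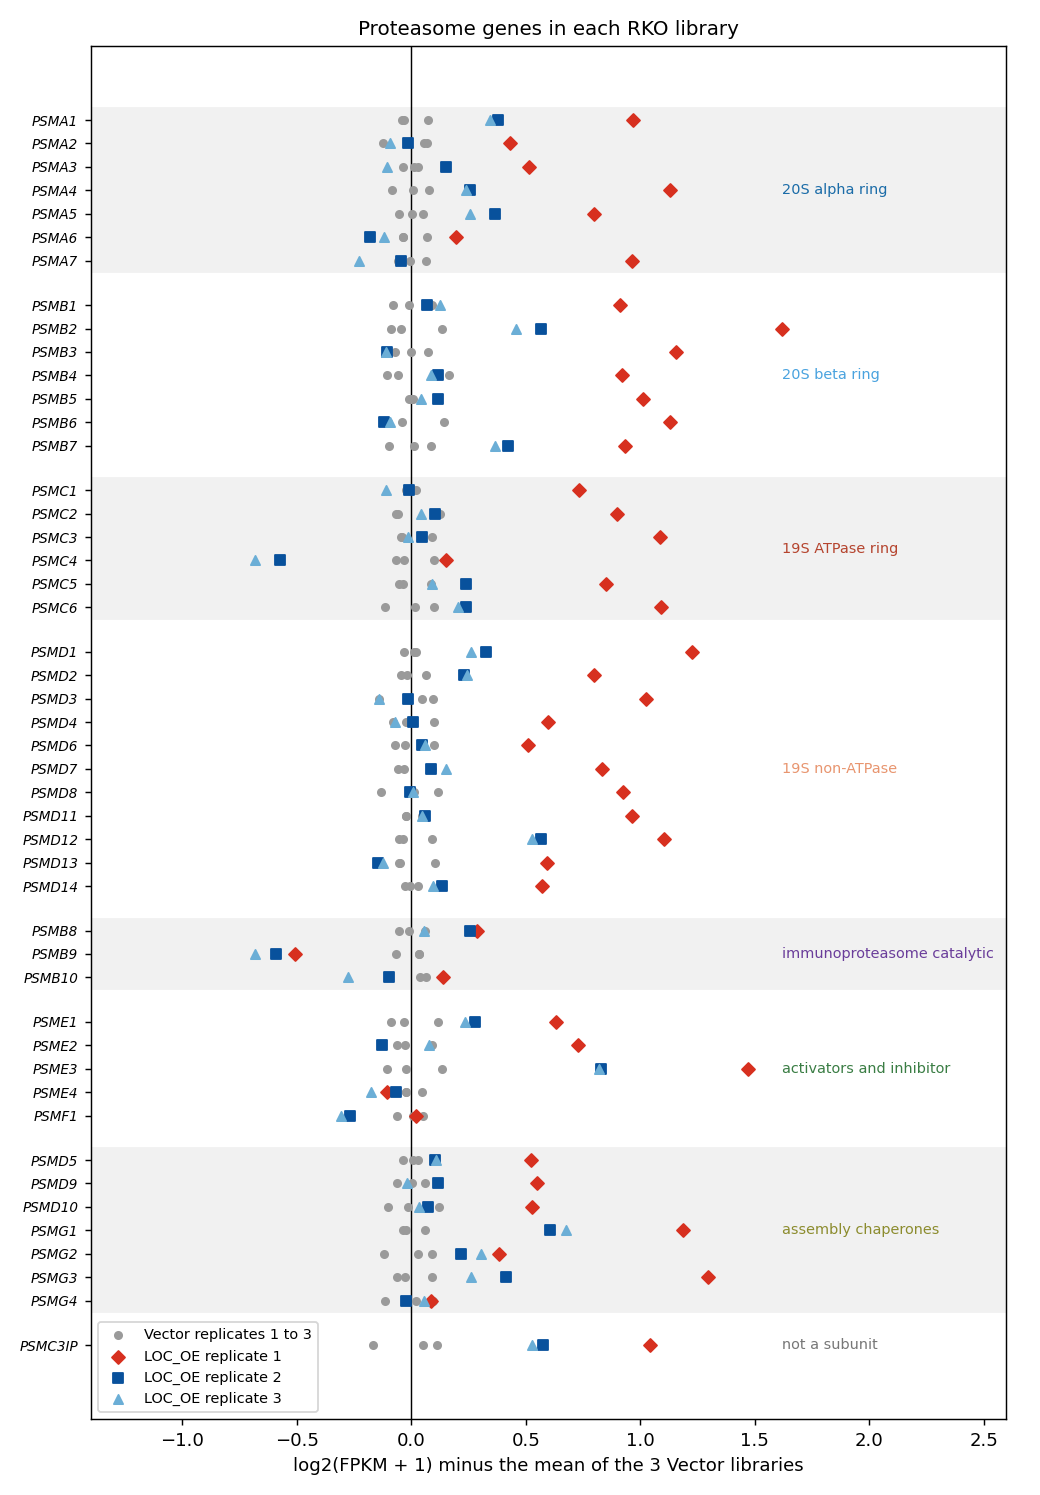
Difference of each library from the mean of the 3 Vector libraries, in log2(FPKM + 1), for the 47 tested genes in structural order, with Vector replicates in grey and LOC_OE replicate 1 as red diamonds. The median of replicate 1 was 0.83, whereas replicates 2 (0.10) and 3 (0.06) lay near the Vector libraries for most genes; PSMB9 was below Vector in all LOC_OE libraries.

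More genes passed the test without LOC_OE replicate 1. Of the 47 genes, 14 were then higher (29.8%, against 19.4% of all tested genes) and 3 were lower (6.38%, against 16.1%). Among protein-coding genes, to which all members belong, the shares were 23.9% higher and 18.5% lower. The genes that were higher were PSME3, PSMG1, PSMC3IP, PSMD12, PSMB2, PSMB7, PSMA1, PSMG3, PSMA5, PSMD1, PSMG2, PSME1, PSMA4 and PSMD2, and those that were lower were PSMC4, PSMB9 and PSMF1. In all 6 libraries, 20 of the 47 genes (42.6%) had every LOC_OE value above every Vector value, against 24.4% of all tested genes. PSMB9 and PSME4, 2 genes (4.26%), had every value below, against 20.9%. Among protein-coding genes these shares were 29.6% above and 21.9% below.

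**Figure D3:**
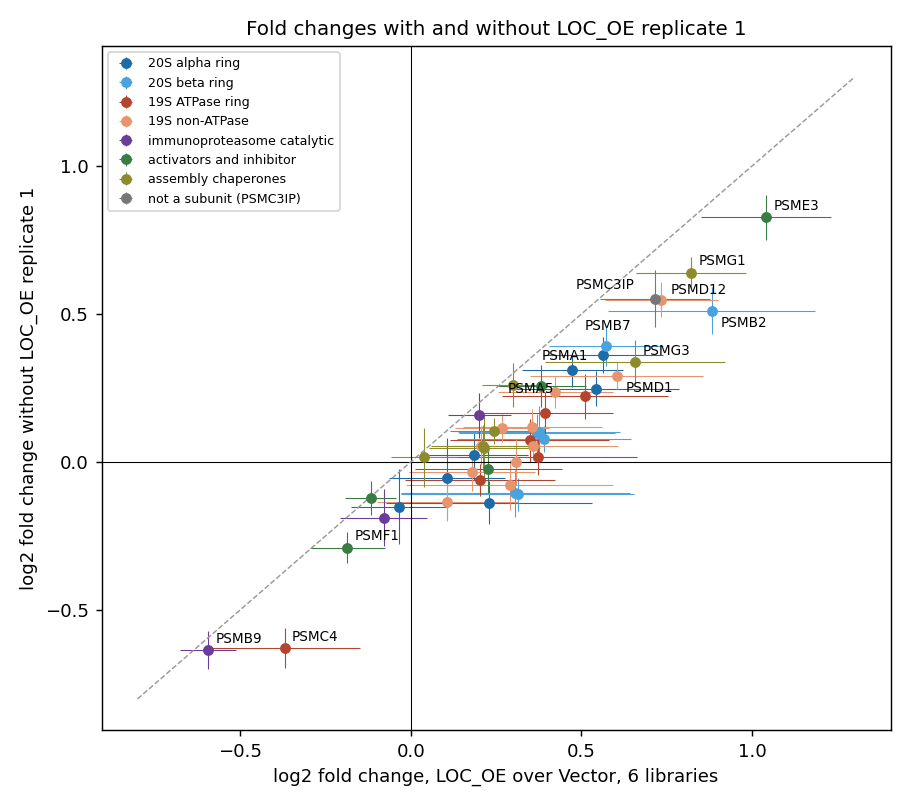
Log2 fold change of each tested gene with all 6 libraries (horizontal) against that without LOC_OE replicate 1 (vertical), with standard errors from limma as bars and the line of equal values dashed. Most genes lie below the line near a vertical value of 0, and PSME3 (1.04 and 0.83), PSMG1 (0.82 and 0.64) and PSMB9 (-0.59 and -0.64) keep most of their change.

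The alpha ring forms the gate of the core. None of its 7 genes passed the test with 6 libraries, and their median log2 fold change was 0.23, which became -0.01 with the same sum of FPKM, 0.03 after division by the reads on genes and 0.12 with array weights. All genes tested had a median of 0.02, which became -0.18 with the same sum and -0.13 after division by the reads on genes. The median of the ring was 0.02 without LOC_OE replicate 1, 0.37 without replicate 2 and 0.46 without replicate 3. It was 0.47 with a mean FPKM of at least 1, where PSMA2 and PSMA6 are not tested. PSMA1 was at 7.99, 7.36 and 7.31 FPKM in Vector and at 15.7, 10.1 and 9.86 FPKM in LOC_OE, without overlap. Its log2 fold change was 0.56 (SE 0.17, limma adjusted p = 0.0661) and 0.36 (SE 0.060, adjusted p = 0.00743) without LOC_OE replicate 1. PSMA5 was at 17.2, 16.5 and 15.9 FPKM in Vector and at 29.5, 21.6 and 19.9 FPKM in LOC_OE. PSMA4 was at 18.7, 16.7 and 17.8 FPKM in Vector and at 40.0, 21.4 and 21.1 FPKM in LOC_OE. Both kept the groups apart, with log2 fold changes of 0.31 and 0.25 without LOC_OE replicate 1. PSMA7, the most abundant alpha subunit, was at 104, 98.7 and 95.4 FPKM in Vector and at 194, 96.1 and 84.6 FPKM in LOC_OE, so that only replicate 1 lay above Vector. PSMA3 (log2 fold change 0.19), PSMA2 (0.11) and PSMA6 (-0.03) overlapped between groups, and stood at 0.02, -0.05 and -0.15 without LOC_OE replicate 1, where PSMA7 was at -0.14.

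The beta ring carries the catalytic sites in PSMB5 (chymotrypsin-like), PSMB6 (caspase-like) and PSMB7 (trypsin-like), and its 4 other subunits are structural. None of the 7 genes passed the test with 6 libraries, with a median log2 fold change of 0.38 and a median of 0.10 without LOC_OE replicate 1. PSMB2 had the largest log2 fold change of the ring. It was at 28.03, 24.6 and 23.9 FPKM in Vector and at 80.3, 38.1 and 35.3 FPKM in LOC_OE. All 3 LOC_OE libraries were above Vector, with a log2 fold change of 0.88 (SE 0.30, limma adjusted p = 0.0874), or 0.51 (SE 0.080, adjusted p = 0.00640) without LOC_OE replicate 1. PSMB7 was at 153, 145 and 135 FPKM in Vector and at 277, 194 and 186 FPKM in LOC_OE. Its log2 fold change was 0.57 (SE 0.17, limma adjusted p = 0.0556), and with the replicate number as a block it passed the test (adjusted p = 0.0490). PSMB5 was nearly constant in Vector, at 66.4, 66.8 and 66.0 FPKM, and at 135, 72.0 and 68.4 FPKM in LOC_OE. PSMB6 was at 56.1, 63.7 and 53.7 FPKM in Vector and at 127, 53.1 and 54.0 FPKM in LOC_OE. For PSMB6, only replicate 1 exceeded the Vector range, and its log2 fold change of 0.31 became -0.11 without this library. PSMB3 behaved likewise in its values (0.31 and -0.11), and PSMB1 (0.37 and 0.10) and PSMB4 (0.38 and 0.10) overlapped between groups.

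In the ATPase ring, PSMC4 was at odds with its neighbours. It was at 58.9, 52.5 and 53.7 FPKM in Vector and at 61.2, 36.6 and 33.8 FPKM in LOC_OE. LOC_OE replicates 2 and 3 lay below every Vector library, while replicate 1 lay above them. The log2 fold change of PSMC4 was -0.37 (SE 0.22, limma adjusted p = 0.278) with 6 libraries and -0.63 (SE 0.068, adjusted p = 0.00223) without LOC_OE replicate 1. It passed the test with the same sum of FPKM (adjusted p = 0.0328), with quantile normalization (adjusted p = 0.0196) and with array weights (adjusted p = 0.00133), that is in 3 of 10 alternative settings, and in 1 of 6 fits that left out a library. Division by the reads on genes (adjusted p = 0.0613) and voom (adjusted p = 0.222) did not pass. The other 5 genes of the ring were above 0 with 6 libraries, at 0.51 for PSMC6, 0.39 for PSMC5, 0.37 for PSMC3, 0.35 for PSMC2 and 0.20 for PSMC1. Without LOC_OE replicate 1 these 5 genes lay between -0.06 (PSMC1) and 0.22 (PSMC6), and none of them passed the test. The groups did not overlap for PSMC5, at 20.9, 18.9 and 19.1 FPKM in Vector and 36.2, 23.3 and 20.9 FPKM in LOC_OE, and for PSMC6, at 8.73, 7.87 and 9.30 FPKM in Vector and 19.5, 10.3 and 10.1 FPKM in LOC_OE. PSMC1 shares 47.7% of its coding bases with a gene on the opposite strand, and no source used here gives the strand of the reads.

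Of the 11 non-ATPase subunits of the cap, PSMD12, a scaffold subunit of the lid, rose. PSMD12 (chr17:67337916-67366627, minus strand) was at 27.8, 25.3 and 25.0 FPKM in Vector and at 57.2, 39.0 and 38.0 FPKM in LOC_OE. All LOC_OE libraries lay above Vector, and replicate 1 was highest. The log2 fold change of PSMD12 was 0.73 (SE 0.17, limma adjusted p = 0.0280), or 0.55 (SE 0.060, adjusted p = 0.00228) without LOC_OE replicate 1. The other 10 genes had log2 fold changes between 0.11 (PSMD13) and 0.60 (PSMD1), and none passed the test. PSMD1, the other large scaffold of the base, was at 25.8, 24.9 and 25.7 FPKM in Vector and at 60.8, 32.1 and 30.6 FPKM in LOC_OE. PSMD2 was at 180.0, 170.0 and 167 FPKM in Vector and at 299.9, 202 and 204 FPKM in LOC_OE. The log2 fold changes without LOC_OE replicate 1 were 0.29 (limma adjusted p = 0.00643) for PSMD1 and 0.24 (adjusted p = 0.0209) for PSMD2. The deubiquitinase PSMD14 (13.7 to 14.4 FPKM in Vector, 15.0 to 21.3 in LOC_OE) and PSMD11 (21.0 to 22.1 and 22.1 to 42.7 FPKM) did not overlap between groups, with log2 fold changes of 0.27 and 0.36, or 0.11 and 0.05 without LOC_OE replicate 1. The ubiquitin receptor PSMD4 was at 0.18, PSMD7 at 0.36, PSMD8 at 0.31, PSMD3 at 0.29 and PSMD6 at 0.21, and the groups of each overlapped. Without LOC_OE replicate 1 these 5 genes were at -0.03, 0.12, 0.00, -0.08 and 0.06 in the same order, and PSMD13 at -0.14.

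The stretch before the start of PSMD12 is shown because this gene was the only constitutive subunit to rise with 6 libraries. It is the part of the RefSeq promoter without annotated exons, chr17:67366628-67366827 on GRCh38.p14, minus strand, 5′ to 3′. Capitals mark a match to TGACNNNGC, the core of the antioxidant response element, which is bound by NFE2L1 and NFE2L2 with small MAF proteins.

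PSMD12 promoter: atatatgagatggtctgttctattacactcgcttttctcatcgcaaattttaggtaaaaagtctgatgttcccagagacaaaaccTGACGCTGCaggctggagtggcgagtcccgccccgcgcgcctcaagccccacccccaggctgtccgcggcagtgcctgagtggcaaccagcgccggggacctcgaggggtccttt

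The immunoproteasome subunits did not move together. PSMB9 (chr6:32844136-32859585, plus strand), which replaces PSMB6, was at 8.09, 8.75 and 8.75 FPKM in Vector and at 5.69, 5.32 and 4.94 FPKM in LOC_OE. Every LOC_OE library was below every Vector library, and replicate 1 lay close to the others. PSMB9 fell by 0.59 on the log2 scale (SE 0.083, limma adjusted p = 0.00887), and by 0.64 (SE 0.064, adjusted p = 0.00188) without LOC_OE replicate 1. PSMB8, which replaces PSMB5, was at 18.1, 17.2 and 16.7 FPKM in Vector and at 21.4, 20.9 and 18.1 FPKM in LOC_OE, with a log2 fold change of 0.20 (SE 0.092, limma adjusted p = 0.169). PSMB10, which replaces PSMB7, was at 3.25, 3.17 and 2.79 FPKM in Vector and at 3.47, 2.79 and 2.35 FPKM in LOC_OE, with a log2 fold change of -0.08 (SE 0.13, limma adjusted p = 0.688). The groups overlapped for both.

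Each immunoproteasome subunit was also set against the constitutive subunit that it replaces, as the log2 ratio of their FPKM. PSMB9 stood at 0.144, 0.137 and 0.163 of the level of PSMB6 in Vector and at 0.0447, 0.1002 and 0.0915 in LOC_OE. The groups did not overlap, and the log2 ratio differed by -0.99 between the group means, or by -0.63 without LOC_OE replicate 1. The ratio of PSMB10 to PSMB7 was 0.0212, 0.0218 and 0.0206 in Vector and 0.0126, 0.0144 and 0.0126 in LOC_OE, again without overlap, with a difference of -0.69, or of -0.65 without LOC_OE replicate 1. The ratio of PSMB8 to PSMB5 was 0.273, 0.258 and 0.253 in Vector and 0.158, 0.290 and 0.264 in LOC_OE. This ratio was lowest in replicate 1, and its difference of -0.18 became 0.09 without that library. Of the ratios of 5 pairs of genes that were tested, these 3 and 2 of PA28, the two-sided exact permutation test gave p = 0.1 for PSMB9 and PSMB10 and p = 0.9 for PSMB8 (0.125, 0.125 and 0.9 after adjustment over the 5). The smallest p that 3 libraries against 3 allow is 0.1.

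PSMB9 lies in the class II region of the major histocompatibility complex, head to head with TAP1, which encodes a subunit of the peptide transporter. Their RefSeq starts are 488 bases apart, on opposite strands, and the stretch between them is shown because both genes fell. TAP1 was at 20.3, 21.6 and 20.01 FPKM in Vector and at 13.8, 11.9 and 11.4 FPKM in LOC_OE, and fell by 0.70 on the log2 scale (SE 0.093, limma adjusted p = 0.00799). PSMB8 and TAP2 belong to the same gene cluster. TAP2 was at 7.09, 6.30 and 6.86 FPKM in Vector and at 10.0, 9.14 and 8.37 FPKM in LOC_OE, and rose by 0.39 (SE 0.093, limma adjusted p = 0.0321). The cluster thus held genes that fell, a gene that rose and PSMB8, which did not pass the test. The sequence is the part of the RefSeq promoter of PSMB9 without annotated exons, chr6:32853979-32854147 on GRCh38.p14, plus strand, 5′ to 3′, with the match to TGACNNNGC, on the minus strand, in capitals.

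PSMB9 promoter: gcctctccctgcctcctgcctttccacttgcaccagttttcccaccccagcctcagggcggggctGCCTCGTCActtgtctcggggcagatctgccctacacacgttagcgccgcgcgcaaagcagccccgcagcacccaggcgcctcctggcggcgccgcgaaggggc

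Among the activators, PSME3 had the largest log2 fold change of the 47 tested genes. It encodes PA28 gamma, the nuclear activator that supports degradation without ubiquitin, and lies at chr17:42824385-42843758 on the plus strand. PSME3 was at 31.7, 26.7 and 28.3 FPKM in Vector and at 81.7, 52.0 and 51.7 FPKM in LOC_OE. All LOC_OE libraries were well above Vector, with replicate 1 again highest. The log2 fold change of PSME3 was 1.04 (SE 0.19, limma adjusted p = 0.0163), or 0.83 (SE 0.077, adjusted p = 0.00159) without LOC_OE replicate 1.

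PSME1 and PSME2, which encode the interferon-inducible subunits PA28 alpha and beta, had smaller log2 fold changes than PSME3. PSME1 was at 70.1, 63.3 and 60.8 FPKM in Vector and at 101, 78.6 and 76.3 FPKM in LOC_OE, without overlap (log2 fold change 0.38, SE 0.13, limma adjusted p = 0.0858), and passed the test without LOC_OE replicate 1 (0.26, adjusted p = 0.0361). PSME2 was at 23.5, 25.5 and 22.9 FPKM in Vector and at 40.4, 21.9 and 25.4 FPKM in LOC_OE, with overlap (log2 fold change 0.23, SE 0.22, limma adjusted p = 0.488, and -0.02 without LOC_OE replicate 1). The level of PSME1 was 2.21, 2.37 and 2.15 times that of PSME3 in Vector and 1.23, 1.51 and 1.48 times in LOC_OE. The level of PSME2 was 0.740, 0.957 and 0.809 times that of PSME3 in Vector and 0.494, 0.420 and 0.491 times in LOC_OE. Neither ratio overlapped between groups, and their log2 differences were -0.68 and -0.83, or -0.59 and -0.87 without LOC_OE replicate 1 (two-sided exact permutation test with 6 libraries, p = 0.1 each, 0.125 after adjustment over the 5 ratios).

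PSME4, which encodes PA200, was at 15.1, 14.4 and 14.4 FPKM in Vector and at 13.5, 13.9 and 12.8 FPKM in LOC_OE. Its values did not overlap, but the difference was small (log2 fold change -0.12, SE 0.074, limma adjusted p = 0.302). PSMF1, the inhibitor PI31, was at 28.3, 27.4 and 26.1 FPKM in Vector and at 27.7, 22.4 and 21.8 FPKM in LOC_OE. As for PSMC4, LOC_OE replicates 2 and 3 of PSMF1 were below Vector and replicate 1 was not. Its log2 fold change was -0.19 (limma adjusted p = 0.272) and -0.29 (adjusted p = 0.00949) without LOC_OE replicate 1.

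**Figure D4:**
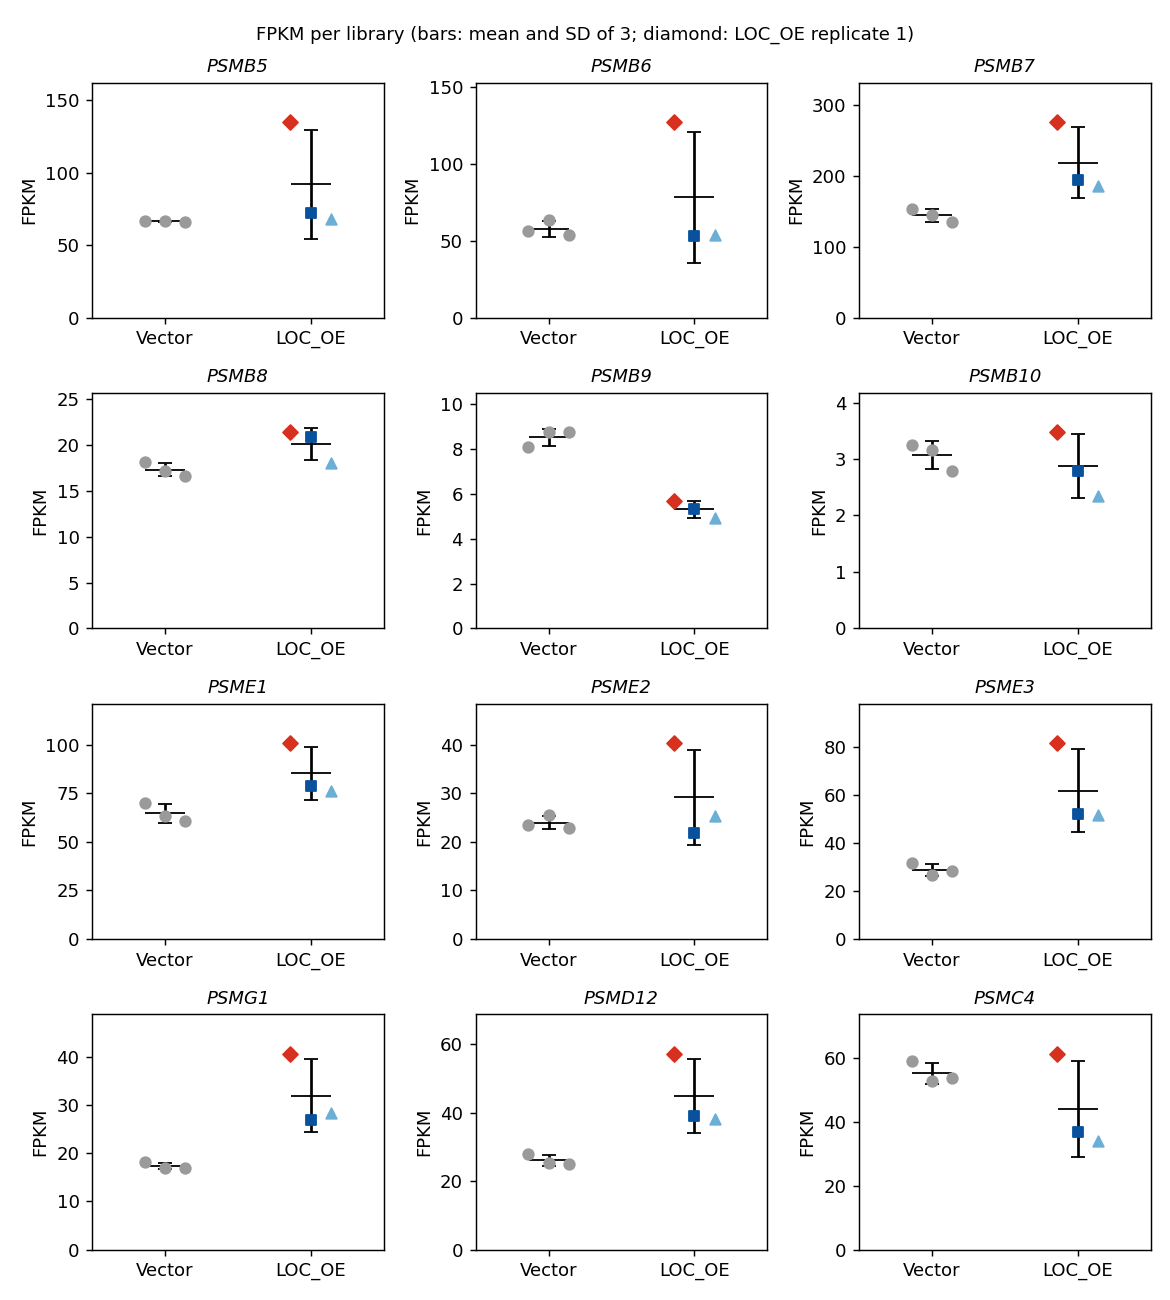
FPKM of 12 genes in each library, with Vector replicates in grey, LOC_OE replicate 1 as a red diamond and replicates 2 and 3 in blue; bars give the mean and SD of 3 libraries, and each vertical axis starts at 0. PSMB9 is lower and PSME3, PSMG1 and PSMD12 are higher in every LOC_OE library, whereas PSMB5, PSMB6 and PSME2 exceed Vector mainly in replicate 1, and PSMC4 is below Vector in replicates 2 and 3 only.

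The assembly chaperones build the core and the cap and are not part of the finished particle. PSMG1 (chr21:39174769-39183851, minus strand), which pairs with PSMG2 to assemble the alpha ring, rose in LOC_OE. PSMG1 was at 18.1, 17.0 and 16.9 FPKM in Vector and at 40.6, 26.8 and 28.2 FPKM in LOC_OE. All LOC_OE libraries lay above Vector, with a log2 fold change of 0.82 (SE 0.16, limma adjusted p = 0.0195), or 0.64 (SE 0.053, adjusted p = 0.00128) without LOC_OE replicate 1. Its partner PSMG2 was at 16.02, 15.3 and 13.7 FPKM in Vector and at 19.8, 17.6 and 18.7 FPKM in LOC_OE, also without overlap, but with a smaller log2 fold change of 0.30 (SE 0.091, limma adjusted p = 0.0627), or 0.26 (adjusted p = 0.0441) without LOC_OE replicate 1. The other pair of core chaperones is PSMG3 and PSMG4. PSMG3 was at 13.1, 12.0 and 11.7 FPKM in Vector and at 31.6, 16.7 and 14.9 FPKM in LOC_OE, without overlap. The log2 fold change of PSMG3 was 0.66 (SE 0.26, limma adjusted p = 0.126), or 0.34 (adjusted p = 0.0187) without LOC_OE replicate 1. PSMG4 had the lowest level of the PSMG genes, with 1.69 to 2.11 FPKM in Vector and 1.87 to 2.09 FPKM in LOC_OE, and a log2 fold change of 0.04. The chaperones of the ATPase ring were all below 0.25, at 0.24 for PSMD5, 0.22 for PSMD9 and 0.21 for PSMD10 (0.11, 0.05 and 0.05 without LOC_OE replicate 1), and the groups of PSMD5 did not overlap.

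PSMC3IP, which is no subunit, was at 4.76, 3.96 and 5.01 FPKM in Vector and at 10.4, 7.30 and 7.01 FPKM in LOC_OE. It rose with a log2 fold change of 0.72 (SE 0.16, limma adjusted p = 0.0275), or 0.55 (SE 0.097, adjusted p = 0.00902) without LOC_OE replicate 1. Its exons overlap those of MLX on the opposite strand over 29.9% of their length, and MLX was at 13.2 FPKM in Vector and 15.0 FPKM in LOC_OE on average. PSMC3IP and PSME3 are 246554 bases apart on chromosome 17. The tested genes within 5 Mb of them had a median log2 fold change of -0.04 in each case, beside 0.02 over all genes tested. Chromosomes 14 and 17 hold 8 members each, and the genes tested on these chromosomes had medians of 0.03 and -0.01. On chromosome 20, where the median was -0.17, lie PSMA7 and PSMF1.

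The calls of the 5 genes depended on which libraries were in the fit, as did those of all genes tested. Without Vector replicate 2 none of them passed the test, with adjusted p-values from limma of 0.0607 for PSMB9, 0.0806 for PSME3, 0.0864 for PSMG1, 0.109 for PSMD12 and 0.109 for PSMC3IP. Without Vector replicate 3 none passed either (0.0545, 0.0701, 0.0789, 0.102 and 0.0789 in the same order). Without Vector replicate 1 only PSMB9 passed (0.0449, against 0.0584, 0.0686, 0.0806 and 0.0855). Without LOC_OE replicate 2, PSMD12 (0.0520) and PSMC3IP (0.0549) did not pass. The directions of the 5 genes were the same in each of these fits, with log2 fold changes of -0.64 to -0.55 for PSMB9, 0.83 to 1.15 for PSME3, 0.64 to 0.93 for PSMG1, 0.55 to 0.84 for PSMD12 and 0.55 to 0.81 for PSMC3IP. Of all genes tested, 10.7% were higher and 9.74% lower with 6 libraries. These shares were 0.897% and 1.41% without Vector replicate 2, and 1.24% and 1.73% without Vector replicate 3. They were 2.15% and 2.35% without Vector replicate 1, and 4.87% and 5.48% without LOC_OE replicate 2. The loss of calls was thus not limited to the 5 genes.

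The partners of the proteasome were described from lists of related genes. Of 13 proteasome-associated proteins, 12 were matched and tested, with 3 higher and 1 lower in LOC_OE, beside 10.7% and 9.74% of all tested genes. The genes that rose were UBE3C, a ubiquitin ligase of the 26S particle (log2 fold change 0.48, limma adjusted p = 0.0151), USP14, its deubiquitinase (0.47, adjusted p = 0.0221), and ZFAND5, a stress-induced activator (0.48, adjusted p = 0.0314). AKIRIN2, which brings proteasomes into the nucleus, fell by 0.43 (limma adjusted p = 0.0152). It was at 31.2, 30.6 and 31.5 FPKM in Vector and at 23.3, 23.8 and 21.5 FPKM in LOC_OE. The core maturation factor POMP was at 53.6, 53.6 and 50.5 FPKM in Vector and at 117, 61.8 and 60.2 FPKM in LOC_OE (0.52, limma adjusted p = 0.191, and 0.21, adjusted p = 0.0211, without LOC_OE replicate 1). The ubiquitin receptor ADRM1 was at 45.7, 45.0 and 42.4 FPKM in Vector and at 62.3, 28.7 and 24.9 FPKM in LOC_OE, the same pattern as PSMC4, with a log2 fold change of -0.31 (limma adjusted p = 0.526) and of -0.71 (adjusted p = 0.00201) without LOC_OE replicate 1. The lid subunit SEM1 was at 4.76, 5.35 and 5.15 FPKM in Vector and at 8.96, 5.98 and 5.89 FPKM in LOC_OE (0.36, limma adjusted p = 0.148, and 0.19 without LOC_OE replicate 1). Without LOC_OE replicate 1, 6 of the 12 genes were higher and 2 were lower, beside 19.4% and 16.1% of all tested genes.

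Upstream of the particle, the ubiquitin-activating enzyme UBA6 rose (0.39, limma adjusted p = 0.0232). Of 10 shuttle factors and genes of the VCP segregase, 2 rose and 1 fell, beside 10.7% and 9.74% of all tested genes. The shuttles that rose were UBQLN1 (0.60, limma adjusted p = 0.0161) and UBQLN4 (0.37, adjusted p = 0.0236). SQSTM1, the autophagy receptor p62, had the largest decrease of these lists. It was at 100.9, 95.8 and 91.3 FPKM in Vector and at 45.4, 46.1 and 42.4 FPKM in LOC_OE, and fell by 1.09 on the log2 scale (SE 0.083, limma adjusted p = 0.00292). Without LOC_OE replicate 1, 4 of these 10 genes were higher and 3 were lower, beside 19.4% and 16.1% of all tested genes.

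Of 7 genes that control the transcription of proteasome genes, 1 rose and none fell, beside 10.7% and 9.74% of all tested genes. DDI2, the protease that activates NFE2L1, was at 6.15, 5.68 and 5.88 FPKM in Vector and at 7.73, 8.499 and 8.13 FPKM in LOC_OE (0.40, limma adjusted p = 0.0186). NFE2L1 itself was at 33.9, 33.9 and 32.6 FPKM in Vector and at 31.5, 41.0 and 41.8 FPKM in LOC_OE, with a log2 fold change of 0.17 (limma adjusted p = 0.363) and of 0.30 (adjusted p = 0.00497) without LOC_OE replicate 1. NFE2L1 was thus lowest in the LOC_OE library in which the proteasome genes were highest. Of 11 interferon and antigen processing genes, TAP2 rose and TAP1 and HLA-B fell, beside the same shares. HLA-B, a class I heavy chain, was at 40.1, 37.2 and 33.7 FPKM in Vector and at 18.2, 18.0 and 19.97 FPKM in LOC_OE, and fell by 0.95 on the log2 scale (SE 0.094, limma adjusted p = 0.00459). HLA-B is a member of a family of near-identical copies, so its reads could have been split among them. Without LOC_OE replicate 1, 3 of the 7 control genes were higher and none lower, and of the 11 antigen processing genes 2 were higher and 5 lower, beside 19.4% and 16.1% of all tested genes.

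The promoters were searched on both strands for 5 motifs, from 250 bases before to 50 bases after the RefSeq start, for 41 of the 47 tested genes and for 27305 promoters in all. Matches to different motifs may overlap. TGACNNNGC was present in 13 of the 41 promoters (31.7%, against 13.6% of all promoters), among them those of PSMB9, PSMD12 and PSMG1, which changed in both directions, and of PSMC4. CCGGAAG, an ETS site, was present in 13 (31.7%, against 10.7%), including PSMD12 and PSMC3IP. CCAAT was present in 19 (46.3%, against 35.7%), including PSME3, PSMG1, PSMB9 and PSMC3IP. The interferon-stimulated response element was present in 6 (14.6%, against 3.65%), namely those of PSMA4, PSMB4, PSMB10, PSME1, PSME2 and PSMG4. TTCNNNGAA, a gamma-activated site, was present in 4 (9.76%, against 7.88%). A match describes the letters of the window and not a bound site.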

How the data were processed

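RNA of RKO cells was measured in 3 Vector and 3 LOC_OE libraries, which were grouped by their labels. The submitters' processing notes name HISAT2 2.0.4, StringTie 1.3.0 and hg38. The tool that counted reads, the annotation, its version and the strand are not given in the sources used here. The authors deposited FPKM for 58735 genes, all of which were found in GENCODE version 29. Multiplied by the merged exon length, the deposited FPKM gave whole reads (within 0.01) for 100% of the values, and hence the library sizes. There were 0 unused columns of values. Reads carry no molecular identifiers, so read limits cover counting error only.

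Genes that reached an FPKM of 0.5 in 3 or more libraries were tested with limma 3.58.1 (R 4.3.3) on log2(FPKM + 1), with a variance trend and all 6 libraries in the fit. The Benjamini-Hochberg adjustment covered the 16061 genes tested. This scale understates the change of low genes. Ratios of 2 genes were compared by exact permutation tests. The limma step was also run on simulated reads, where 144 of 200 changed genes (72.0%) were recovered and 15 unchanged genes were called. With no gene changed, 1 gene was called. The simulated libraries all had the same small spread and none stood apart, unlike LOC_OE replicate 1, so this run does not cover that library. Sequences are from RefSeq (GRCh38.p14); figures were made in Python 3.11.15 (matplotlib 3.10.9).

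All members are named, and of the related lists the genes with an adjusted p-value under 0.05 plus NFE2L1, POMP, ADRM1 and SEM1. MLX was named after its values were seen. KIAA0368 was not matched. A gene of the ubiquitin list, and the counts of that list, are not reported here. Members, lists and tests were chosen with earlier results of these data known. Alternative settings included a pseudocount of 0.1, testing without a filter, a mean FPKM of at least 1, the same sum of FPKM, quantile normalization, no variance trend, array weights, a replicate block, leaving out each library, voom on the reads, unadjusted p-values and, chosen after seeing the data, division by the reads on genes. The voom fit used the library sizes by which the deposited values had been divided, so it kept their scaling.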

Additional observations from a re-analysis of the deposited data

How the results depend on the processing

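The 5 calls kept their direction in every fit, but their number depended on the libraries. Leaving out 1 library at a time gave 0 to 14 members higher and 0 to 3 lower (0 to 4 and 0 to 2 with a fold change of at least 1.5). With no limit on the fold change, 0.897% to 19.4% of all genes tested were higher in these fits and 1.41% to 16.1% lower. Other settings gave, for members higher, 2 with no filter on low FPKM (4.17%, against 3.38% of all genes tested), 17 with array weights (36.2%, against 27.2%), 7 with voom on the reads (14.9%, against 12.2%) and 12 with an unadjusted p-value (25.5%, against 19.4%). With the fold change, 2 were higher with no filter, 1 with the same sum of FPKM and 2 after division by the reads on genes. Members lower numbered 4 with the same sum of FPKM (8.51%, against 19.5% of all genes tested) and 3 (6.38%) each with quantile normalization, array weights and division by the reads on genes, against 11.2%, 23.2% and 17.1%. With the fold change, 2 were lower with the same sum and 2 with quantile normalization. The replicate block gave 5 higher (10.6%, against 7.01% of all genes tested) and 1 lower (2.13%, against 5.85%). It added PSMB7 and changed no other call. Libraries with the same number did not deviate together throughout (r = 0.11, -0.03 and 0.12 for numbers 1 to 3, with replicate 2 closer to other numbers). The values of numbers 1 and 3 were the highest of all pairs of a Vector and a LOC_OE library. Whether libraries were paired by number is not settled by these values, and the labels do not give it. Array weights gave LOC_OE replicate 1 a weight of 0.104, against 5.02 for LOC_OE replicate 2. Class medians moved with the same sum of FPKM to -0.28 for the immunoproteasome and 0.053 for the chaperones, beside -0.18 for all genes tested. With array weights the median of the activators and the inhibitor moved to -0.076. The ratio of PSMB8 to PSMB5 lay between -0.35 and 0.086 without 1 library, reversed without LOC_OE replicate 1. Genes with small fold changes reversed, none of them a called gene. With the same sum of FPKM these were PSMA2 (-0.013), PSMA3 (-0.066), PSMA7 (-0.030), PSMB8 (-0.048), PSMC1 (-0.037), PSMD10 (-0.039), PSMD13 (-0.14), PSMD4 (-0.079), PSMD5 (-0.0077), PSMD6 (-0.038), PSME2 (-0.025) and PSMG4 (-0.14). With quantile normalization they were PSMA6 (0.10), PSMA7 (-0.10), PSMB3 (-0.012), PSMD13 (-0.082) and PSMD4 (-0.10), with array weights PSMA7 (-0.044), PSMB3 (-0.071), PSMB6 (-0.12), PSMC1 (-0.010), PSMD13 (-0.12), PSMD3 (-0.011), PSME2 (-0.10) and PSMG4 (-0.023), and after division by the reads on genes PSMA3 (-0.0093), PSMD13 (-0.087), PSMD4 (-0.021) and PSMG4 (-0.10). Without 1 library at a time the log2 fold change crossed 0 for PSMA2 (-0.054 to 0.21), PSMA6 (-0.15 to 0.039), PSMA7 (-0.14 to 0.46), PSMB10 (-0.19 to 0.020), PSMB3 (-0.11 to 0.52), PSMB6 (-0.11 to 0.52), PSMC1 (-0.060 to 0.36), PSMD13 (-0.14 to 0.23), PSMD3 (-0.078 to 0.50), PSMD4 (-0.032 to 0.30), PSME2 (-0.023 to 0.40) and PSMG4 (-0.018 to 0.086). In the other alternatives no member reversed. The median of all genes tested itself moved by -0.20 with the same sum of FPKM and by -0.15 after division by the reads on genes. Why the values of single genes moved was not tested. Depth limits PSMA2, PSMA6 and PSMB10, which had 79, 97 and 113 reads in Vector replicate 1.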
